A study of Mus musculus with 6 samples.

Results

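Levels of 40 genes spread along mouse chromosome 19 were followed across 6 expression arrays of N-myc-induced B-cell leukaemia in mice. The genes are a fixed list of chromosome 19 genes, chosen with earlier results of these arrays known, and for each gene the brightest of the probe sets annotated to it alone was taken, by mean over the 6 arrays. Of the 40 genes 38 were measured, out of 18193 genes in all, and Prdx5 and Chuk were not analysed here. All 38 lie on chromosome 19 in RefSeq's GRCm38.p6 gene table. RNA was measured and DNA was not, so the copy number of the chromosome is not known from these data.

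The arrays came from 3 Cdh1-deficient and 3 Cdh1-intact leukaemias, 1 mouse each, on a C57BL/6 background. All donors carried 2 copies of a conditional gene-trap allele of Cdh1 that holds a floxed cDNA (Cdh1f/f). The Cdh1-deficient donors also carried Mx1-Cre, a recombinase under an interferon-inducible promoter, and the Cdh1-intact donors did not. Donors of both genotypes were littermates and received pIpC, the inducer of Mx1-Cre, at 7 to 8 weeks of age. Marrow cells were taken 4 weeks after the last pIpC injection and 2 days after 5-fluorouracil at 150 mg/kg, and the retroviral vector pMXs-IG with N-myc was used to induce leukaemia. GFP-positive marrow cells were sorted from each moribund mouse. The comparison asks how leukaemia cells without Cdh1 differ in expression from those with it, where Cdh1 is the product of Fzr1, a coactivator of the anaphase-promoting complex that acts late in mitosis and in G1.

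The anaphase-promoting complex governs the separation of sister chromatids, and errors in that step can leave a daughter cell with an extra or a missing chromosome. In aneuploid cells, transcripts from a gained or lost chromosome tend to shift together in the direction of the dosage, while single genes can be buffered or regulated apart from it. Chromosome 19 is the smallest mouse autosome.

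Values are log2 levels after RMA, which brings the arrays to a common distribution, so each is relative to the rest of its array. Fzr1 itself, on chromosome 10, lay at 8.10, 7.73 and 8.22 on the Cdh1-deficient arrays 1, 2 and 3 and at 8.92, 8.04 and 8.92 on the Cdh1-intact arrays, and the groups overlapped. Whether its probe set lies inside the trapped part of the gene is not known here. Cdh1-intact array 2 stood apart from the others. Over 7 measured B-cell markers its mean level was 4.77, against 9.12 to 9.54 on the Cdh1-deficient and 9.37 and 10.03 on the other Cdh1-intact arrays. Each of the 7 lay between 3.97 and 5.40 there, so the labelled B-cell identity was not seen on that array. Over 7 markers of T and NK cells the mean was 5.70, 5.70 and 5.92 on the Cdh1-deficient arrays and 5.61, 11.29 and 8.08 on the Cdh1-intact arrays 1, 2 and 3. Neutrophil, macrophage and erythroid marker means lay within 9.56 to 11.76, 6.28 to 6.78 and 4.82 to 5.71 on the Cdh1-deficient arrays, and within 6.26 to 10.37, 4.90 to 7.77 and 4.85 to 6.85 on the Cdh1-intact arrays. The macrophage and erythroid means were highest on Cdh1-intact array 1, at 7.77 and 6.85. The neutrophil mean was highest on Cdh1-deficient array 2, at 11.76. Results are therefore also given without single arrays. In bulk samples, fewer cells of a type and less RNA per cell cannot be told apart.

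The chosen genes were low on Cdh1-intact array 3. Their median deviation from their own means over the 6 arrays was −0.01, 0.11 and 0.13 on the Cdh1-deficient arrays 1, 2 and 3, and 0.05, 0.16 and −0.41 on the Cdh1-intact arrays 1, 2 and 3. On Cdh1-intact array 3, 34 of the 38 genes lay below their own mean and 27 had their lowest value of the 6 arrays. Over all genes, 15.0% were lowest on that array. The lowest value of 2, 1 and 2 of the 38 genes was on the Cdh1-deficient arrays 1, 2 and 3, and of 3 and 3 on the Cdh1-intact arrays 1 and 2, where the shares over all genes were 8.68%, 17.5%, 14.8%, 20.0% and 24.0%. Set against the mean of the other 5 arrays, the median gene of the 38 differed by −0.49 on the log2 scale, which is 71.0% of the level elsewhere. The value against the Cdh1-intact arrays 1 and 2 was −0.56 and that against the 3 Cdh1-deficient arrays −0.49. A single array is no replicated group, and no test was made of it.

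**Figure D1:**
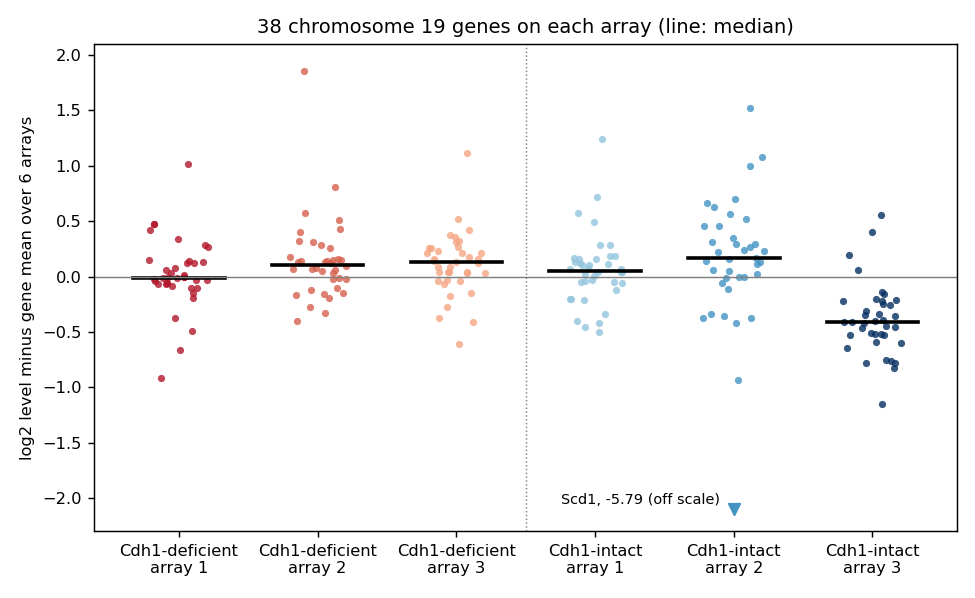
Log2 level of each of the 38 measured chromosome 19 genes minus that gene's mean over the 6 arrays, by array; points are genes and black lines medians. On Cdh1-intact array 3 the median is −0.41 and 34 of 38 genes lie below 0, while the other medians lie between −0.01 and 0.16; the triangle is Scd1 on Cdh1-intact array 2, at −5.79.

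The 11 genes that were not lowest on Cdh1-intact array 3 were Kat5, Sdhaf2, Jak2, Scd1, Tcf7l2, Shoc2, Mrpl49, Cpt1a, Ptprcap, Ehd1 and Entpd1. Of these Scd1, Ehd1, Tcf7l2 and Cpt1a lay above their own mean on that array, by 0.55, 0.40, 0.19 and 0.06. Scd1, Ehd1 and Entpd1 were lowest on Cdh1-intact array 2, the array low in B-cell markers. Tcf7l2 lay at 3.43 to 4.11 on all arrays, close to the floor. The DNA-repair gene Smc5, the chromatin helicase gene Hells, the desaturase gene Scd2 and the ubiquitin ligase gene Trim8 were furthest below the mean of the other 5 arrays, at −1.38, −0.995, −0.94 and −0.93. This order rests on the chosen probe sets. Deviations of these genes from their own means on Cdh1-intact array 3 were −1.15, −0.83, −0.78 and −0.78. With all probe sets of each gene averaged they were −0.74, −0.50, −0.70 and −0.25.

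The other genes of the chromosome lay where the chosen ones did. Of the other chromosome 19 genes, 300 had a mean level no lower than that of the median gene (5.97). Their median deviation was 0.01, 0.13 and 0.14 on the Cdh1-deficient arrays 1, 2 and 3, and 0.13, 0.07 and −0.43 on the Cdh1-intact arrays. On Cdh1-intact array 3, 277 of the 300 lay below their own mean and 204 (68.0%) were lowest of the 6 arrays. Among the 8743 genes of other chromosomes at such levels 7.94% were lowest there. These 300 genes were not in the chosen list, but they come from the same RNA and the same arrays. Their chromosome was also chosen with earlier results of these arrays known.

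The low values ran along the whole chromosome. In gene order, the first, middle and last 100 of the 300 other genes had median deviations of −0.42, −0.42 and −0.43 on Cdh1-intact array 3. A running median over 21 genes lay between −0.59 and −0.24 on that array in all 316 windows, and was the lowest of the 6 arrays in each of them. On the other arrays the same running median crossed 0, with lowest windows between −0.30 and −0.009 and highest windows between 0.19 and 0.47. The Cdh1-deficient arrays 1 and 2 differed most from each other in the middle 100 genes, with medians of −0.08 and 0.22.

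**Figure D2:**
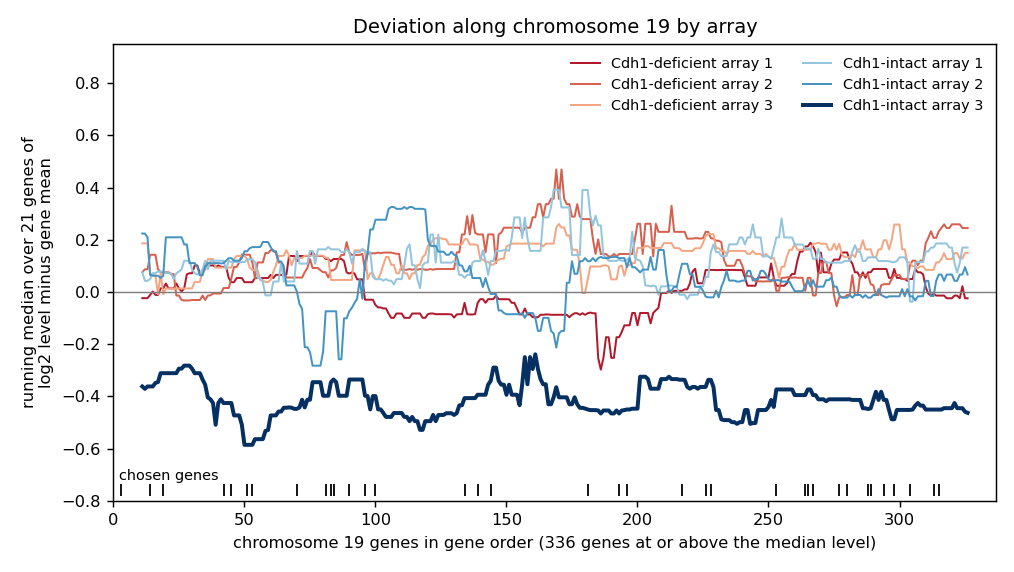
Running median over 21 neighbouring genes of the log2 level minus the gene mean, for 336 chromosome 19 genes at or above the median level in gene order, 1 line per array; ticks mark the chosen genes. The line of Cdh1-intact array 3 stays between −0.59 and −0.24, below the lines of the other 5 arrays in all 316 windows.

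The shift was larger in genes with higher levels. Among the other chromosome 19 genes, the median deviation on Cdh1-intact array 3 was −0.05 for 118 genes with a mean level of at most 4.26 and −0.08 for 153 genes between that and the median level. It was −0.36 for 156 genes from there to 8.51 and −0.45 for 144 genes above. Genes of other chromosomes had −0.03, −0.04, 0.02 and 0.06 in the same 4 ranges. Probe sets of the 38 genes that the rule passed over were low there as well: of 36 such sets at or above the median level, 31 lay below their own mean on Cdh1-intact array 3 and 22 were lowest there, with a median deviation of −0.34. The 36 sets come from 22 of the 38 genes and from the same arrays, so they are not independent of the values above.

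Set beside the other chromosomes, chromosome 19 on Cdh1-intact array 3 was the furthest from the median of its array. The chromosome, like the genes, was chosen with earlier results of these arrays known, so its place is a description and not a test. The median deviation of all genes at or above the median level was taken off each array, and the remainder was compared over 20 chromosomes and 6 arrays, 120 values in all. Chromosome 19 (336 genes) stood at −0.46 on Cdh1-intact array 3. The next largest values were −0.27 for chromosome 13 on Cdh1-deficient array 2, 0.22 for chromosome 4 on Cdh1-deficient array 3 and 0.21 for chromosome 3 on Cdh1-deficient array 2. Chromosome 19 also held the fifth place, at 0.20 on Cdh1-intact array 1. There it was the highest of the 20 chromosomes, as it was on Cdh1-intact array 2 at 0.13. On the Cdh1-deficient arrays 1, 2 and 3 it stood at −0.04, 0.10 and 0.07. The chromosome thus had its highest and its lowest relative value inside the same group. All deviations are from a mean that includes Cdh1-intact array 3, so its low values alone raise chromosome 19 on every other array. How far the ranks on the Cdh1-intact arrays 1 and 2 rest on this was not tested.

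**Figure D3:**
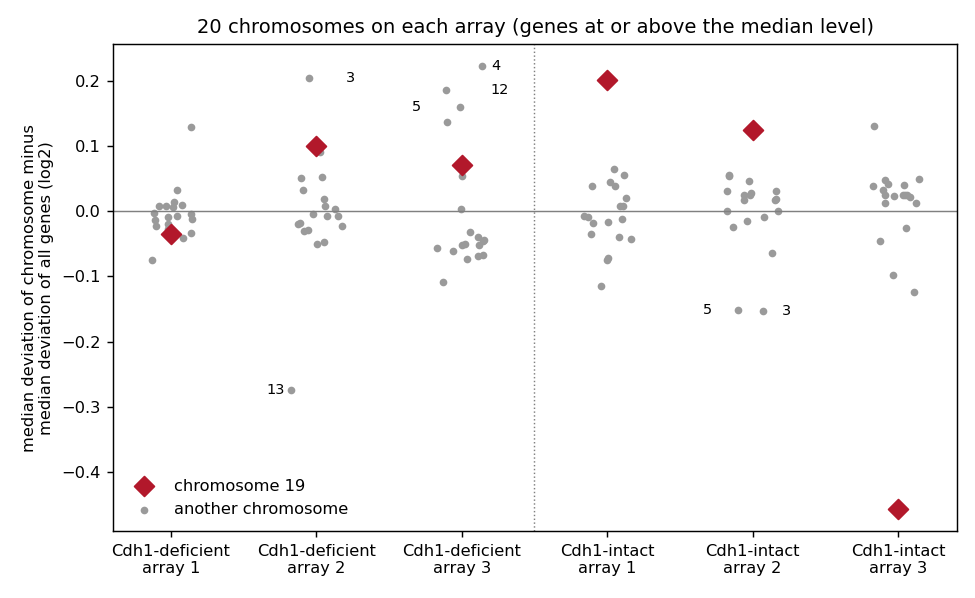
Median deviation of the genes of each of 20 chromosomes minus that of all genes on the same array (log2), for genes at or above the median level; diamonds are chromosome 19, grey points the others, with those beyond 0.15 in size numbered. Chromosome 19 stands at −0.46 on Cdh1-intact array 3 and at 0.20 on Cdh1-intact array 1, with every Cdh1-deficient value between them.

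Markers of T and NK cells stood between on Cdh1-intact array 3: all 7 lay above every Cdh1-deficient value and below Cdh1-intact array 2. Cd3d, a chain of the T-cell receptor complex, had 5.09 to 5.41 on the Cdh1-deficient arrays and 6.10, 12.55 and 8.69 on the Cdh1-intact arrays 1, 2 and 3. Cdh1-intact array 2 held the highest T-cell levels and the lowest B-cell marker mean (4.77). The median deviation of the 300 other chromosome 19 genes on that array was 0.07. The B-cell marker mean on Cdh1-intact array 3 was 10.03, the highest of the 6, and the B-cell marker Ms4a1, itself on chromosome 19, had 10.87 there, also its highest. These are values of single arrays, and the part of cell makeup in the chromosome 19 values was not tested.

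Between the groups, no gene of the array passed the test. The limma fit with Benjamini-Hochberg adjustment called 0 of 18193 genes (0%), with 0.849 as its smallest adjusted p. Without adjustment 1000 genes had p under 0.05. The members are described below by values, without a test, since the list was drawn up with results of these arrays known. Of the 38 genes 29 had a higher mean in Cdh1-deficient cells (76.3%) and 9 a lower one. The share with a higher mean was 50.9% over all genes. It was 62.5% over genes at or above the median level, where 36 of the 38 lie. The median difference of the 38 genes was 0.14, Cdh1-deficient minus Cdh1-intact. It was 0.16 for the 300 other chromosome 19 genes and 0.09 for all 9097 genes at or above the median level. Averaging all probe sets of a gene gave 0.07 for the 38 genes, and with no filter on level the 571 other chromosome 19 genes gave 0.04.

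That difference depended on Cdh1-intact array 3. Without it the median over the 38 genes was −0.0021, with 19 of 38 above 0, and that over the 300 other chromosome 19 genes −0.02. All genes at or above the median level then had a median of 0.13, and chromosome 19 had the lowest median of the 20 chromosomes, where with all arrays it was the fourth highest. Without Cdh1-intact array 2, on which 15 of the 38 genes had their highest value, the median over the 38 genes was 0.32. Of the 38 differences 31 then lay above 0. The medians by role given below leave out only Cdh1-intact array 3, so they do not show this rise. For comparison, chromosomes 3 and 5 had medians of 0.31 and 0.36 with all arrays and of 0.34 and 0.43 without Cdh1-intact array 3.

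**Figure D4:**
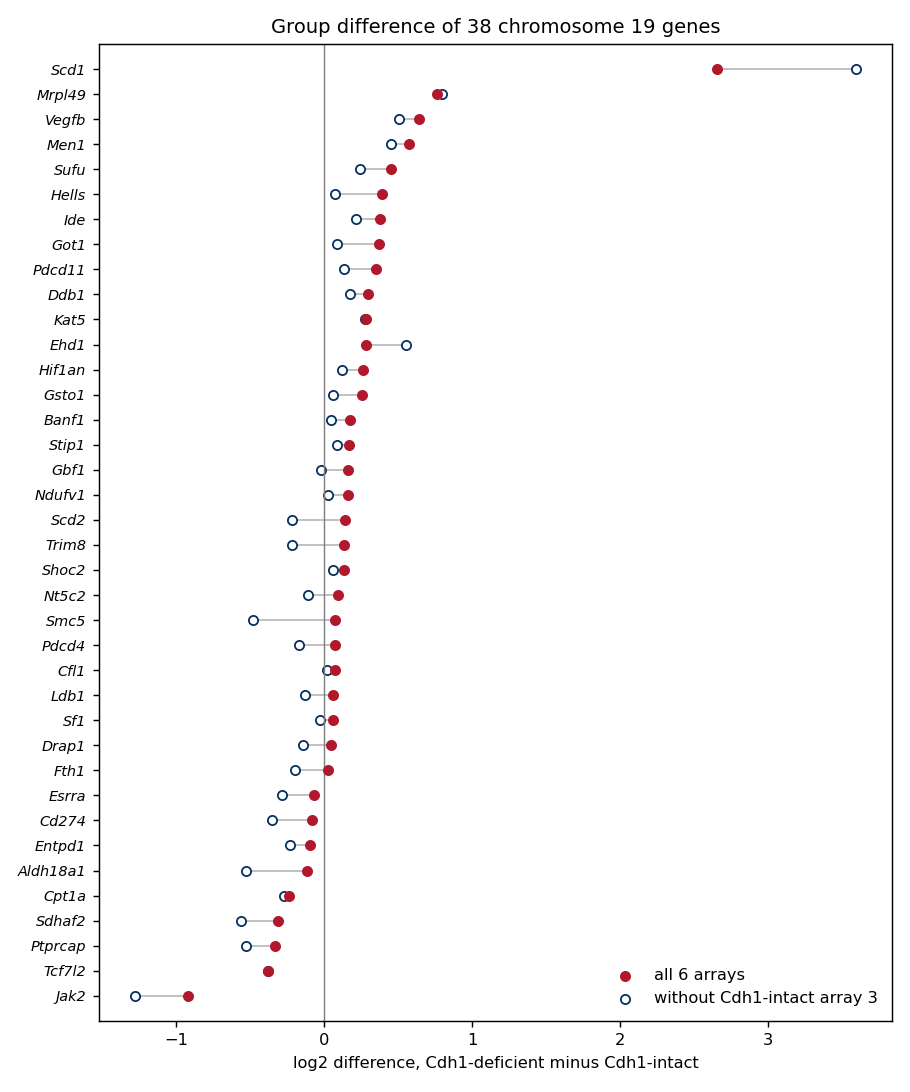
Log2 difference of the group means, Cdh1-deficient minus Cdh1-intact, for each of the 38 genes with all 6 arrays (filled) and without Cdh1-intact array 3 (open). Most open points lie to the left of the filled ones, and the number of genes above 0 is 29 with all arrays and 19 without that array.

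The arrays of the groups did not overlap for 5 of the 38 genes. Men1, Vegfb, Sufu and Mrpl49 were higher on all 3 Cdh1-deficient arrays, 4 of 38 (10.5%), where 6.65% of all genes were. Tcf7l2 was lower on all 3, 1 of 38, where 5.09% of all genes were. Among genes at or above the median level, where 36 of the 38 lie, the shares were 9.88% higher and 4.03% lower. The share of higher members thus lay near that of genes at such levels. The promoters of the 4 higher genes are shown because all 3 Cdh1-deficient values of these genes lay above all 3 Cdh1-intact values. The sequences are from RefSeq (GRCm38.p6), run from 250 bases before to 50 after a transcript start, and have in capitals the CCAAT motif, searched as CCAAT and as its reverse complement ATTGG. Of the several starts of Men1 the one with the lowest coordinate is shown.
Men1, chr19:6334729-6335028, plus strand: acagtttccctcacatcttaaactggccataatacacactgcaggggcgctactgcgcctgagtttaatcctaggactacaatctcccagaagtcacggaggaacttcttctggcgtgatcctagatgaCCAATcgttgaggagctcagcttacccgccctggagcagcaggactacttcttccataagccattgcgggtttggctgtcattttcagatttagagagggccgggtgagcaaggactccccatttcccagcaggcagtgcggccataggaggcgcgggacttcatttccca
Vegfb, chr19:6987602-6987901, minus strand: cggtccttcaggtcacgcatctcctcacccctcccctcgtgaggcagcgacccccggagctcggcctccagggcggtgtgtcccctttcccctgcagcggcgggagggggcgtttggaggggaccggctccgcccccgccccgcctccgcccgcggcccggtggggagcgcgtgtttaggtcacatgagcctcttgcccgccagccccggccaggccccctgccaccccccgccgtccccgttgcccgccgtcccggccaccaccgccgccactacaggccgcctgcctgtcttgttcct
Sufu, chr19:46396646-46396945, plus strand: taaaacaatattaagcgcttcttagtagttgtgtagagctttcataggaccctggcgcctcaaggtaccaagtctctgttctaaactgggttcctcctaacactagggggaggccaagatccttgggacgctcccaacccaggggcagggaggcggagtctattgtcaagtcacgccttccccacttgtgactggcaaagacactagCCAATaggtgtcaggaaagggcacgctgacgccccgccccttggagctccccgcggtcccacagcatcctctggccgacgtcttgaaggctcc
Mrpl49, chr19:6057706-6058005, minus strand: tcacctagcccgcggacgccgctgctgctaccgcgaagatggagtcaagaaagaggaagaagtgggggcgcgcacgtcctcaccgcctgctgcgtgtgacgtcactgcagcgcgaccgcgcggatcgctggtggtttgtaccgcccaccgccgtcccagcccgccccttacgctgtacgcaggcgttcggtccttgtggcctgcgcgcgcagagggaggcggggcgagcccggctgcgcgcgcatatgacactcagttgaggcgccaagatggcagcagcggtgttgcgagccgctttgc
The Men1 and Sufu windows held CCAAT and the Vegfb and Mrpl49 windows did not, nor did any of the 4 hold CACGTG, the E-box letters that MYC proteins are known to bind. Over all members with an entry (33 genes, 50 promoters), 42% of promoters held CCAAT or ATTGG and 8% CACGTG. Over all 32851 promoters of the table the shares were 37.4% and 7.15%. These are matches of letters and say nothing of binding.

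Among the 12 genes of transcription, chromatin, DNA and RNA, 10 had a higher mean in Cdh1-deficient cells, with a median difference of 0.12, or 0.01 without Cdh1-intact array 3, and 10 were lowest on that array. Men1 encodes menin, a scaffold of histone methyltransferase complexes. Its level was 7.59, 7.25 and 7.38 on the Cdh1-deficient arrays, against 7.13, 6.78 and 6.60 on the Cdh1-intact arrays. The difference was 0.57 (SE 0.17), and the mean over all 3 of its probe sets gave 0.22, so it rested largely on the chosen one. Hells, a chromatin helicase needed for DNA methylation, had 10.25, 10.85 and 10.31 on the Cdh1-deficient and 9.85, 10.94 and 9.45 on the Cdh1-intact arrays. Its Cdh1-intact arrays held both the highest and the lowest value. Smc5, a subunit of the SMC5/6 complex of DNA repair, had 7.41, 9.14 and 8.55 on the Cdh1-deficient and 8.29, 9.41 and 7.18 on the Cdh1-intact arrays. The spread within each group was wider than the difference of 0.07 (SE 0.68).

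Ddb1, the adaptor of CUL4 ubiquitin ligases, lay at 10.56, 10.66 and 11.02 on the Cdh1-deficient arrays and at 10.56, 10.59 and 10.21 on the Cdh1-intact arrays. Pdcd11, which acts in ribosomal RNA processing, lay at 8.92, 8.81 and 9.14 on the Cdh1-deficient and 8.92, 8.73 and 8.18 on the Cdh1-intact arrays. Both had their lowest value on Cdh1-intact array 3 and overlapping groups. Banf1, a DNA-binding protein of the nuclear envelope, varied little on the other 5 arrays, at 12.31, 12.45 and 12.44 on the Cdh1-deficient arrays and 12.38, 12.33 and 11.96 on the Cdh1-intact arrays. Kat5, an acetyltransferase of histones, did not follow this order. It had 8.71, 8.04 and 8.37 on the Cdh1-deficient arrays and 7.73, 8.46 and 8.08 on the Cdh1-intact arrays, with its lowest value on Cdh1-intact array 1. Ldb1, an adaptor of LIM-domain transcription complexes, differed by 0.06, the splicing factor gene Sf1 by 0.06, Drap1, part of a repressor of the TATA-binding protein, by 0.05 and the orphan nuclear receptor gene Esrra by −0.07. For these 4 genes Cdh1-intact array 3 carried the lowest value. Tcf7l2, a transcription factor of the Wnt pathway, had 3.82, 3.69 and 3.43 on the Cdh1-deficient and 3.94, 4.11 and 4.03 on the Cdh1-intact arrays. That difference of −0.38 (SE 0.13) lay near the floor and turned to 0.13 with its 1 probe set whose identifier has no _a_at, _s_at or _x_at suffix.

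Of the metabolic and mitochondrial genes 11 of 12 were measured. Of these 8 had a higher mean in Cdh1-deficient cells, the median difference was 0.14, or −0.11 without Cdh1-intact array 3, and 7 were lowest on that array. Scd1 and Scd2 are nearby genes for stearoyl-CoA desaturases, which make monounsaturated fatty acids, and they behaved differently. Scd1 lay at 10.85, 11.69 and 10.95 on the Cdh1-deficient arrays, against 11.08, 4.05 and 10.39 on the Cdh1-intact arrays. Its difference of 2.66 (SE 1.85) was 0.43 without Cdh1-intact array 2. Scd2 lay at 11.52, 11.91 and 11.65 on the Cdh1-deficient arrays and at 11.90, 11.91 and 10.84 on the Cdh1-intact arrays, so that only Cdh1-intact array 3 was low.

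Mrpl49 encodes a protein of the large mitochondrial ribosome subunit. It lay at 10.09, 10.17 and 9.87 on the Cdh1-deficient arrays and at 9.20, 9.29 and 9.35 on the Cdh1-intact arrays, averaging 10.04 ± 0.16 in Cdh1-deficient and 9.28 ± 0.07 in Cdh1-intact cells (SD, n = 3 each). Its difference of 0.76 (SE 0.12) was 0.80 without Cdh1-intact array 3, the highest array of its group, and 0.69 as an average of its 2 probe sets. With limma its adjusted p over all genes was 0.849, so it did not pass.

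Got1, the cytosolic aspartate aminotransferase of the malate-aspartate shuttle, had 9.63, 9.57 and 9.89 on the Cdh1-deficient arrays and 10.08, 9.13 and 8.76 on the Cdh1-intact arrays. Its highest and lowest values were both Cdh1-intact. Aldh18a1, a proline synthesis enzyme, had 10.73, 10.33 and 10.57 on the Cdh1-deficient arrays and 10.54, 11.59 and 9.84 on the Cdh1-intact arrays, again with both extremes in the Cdh1-intact group. Nt5c2, a purine nucleotidase mutated in relapsed human lymphoblastic leukaemia, had 9.44, 9.43 and 9.61 on the Cdh1-deficient arrays and 9.24, 9.96 and 8.99 on the Cdh1-intact arrays. Fth1, the heavy chain of the iron store ferritin, had 12.94, 13.24 and 13.13 on the Cdh1-deficient arrays and 13.37, 13.23 and 12.63 on the Cdh1-intact arrays. The groups overlapped for each of these 4 genes, with the lowest value on Cdh1-intact array 3. Gsto1, a glutathione transferase, differed by 0.26 and Ndufv1, a subunit of respiratory complex I, by 0.16, or by 0.06 and 0.03 without that array. Cpt1a, which brings fatty acids into mitochondria, and Sdhaf2, an assembly factor of complex II, had lower means in Cdh1-deficient cells, at −0.24 and −0.32, with the highest value of each on Cdh1-intact array 2.

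In the group of signalling and immune surface genes 10 of 11 were measured, and 6 of them had a higher mean in Cdh1-deficient cells. The median difference was 0.10, or −0.20 without Cdh1-intact array 3, and all 10 lay below their own mean on that array. Jak2, the kinase of cytokine receptors, had 6.45, 6.99 and 6.50 on the Cdh1-deficient arrays, against 7.23, 8.63 and 6.86 on the Cdh1-intact arrays. The groups overlapped, and the difference of −0.92 (SE 0.47) was −0.39 without Cdh1-intact array 2. Cd274, its neighbour a few genes on, encodes the checkpoint ligand PD-L1 and did not share that pattern. It had 5.87, 6.32 and 6.42 on the Cdh1-deficient arrays and 6.74, 6.38 and 5.73 on the Cdh1-intact arrays, with a difference of −0.08 (SE 0.29).

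Vegfb, a growth factor of the VEGF family, had 7.51, 7.49 and 7.48 on the Cdh1-deficient arrays and 7.22, 6.76 and 6.58 on the Cdh1-intact arrays. It averaged 7.49 ± 0.015 in Cdh1-deficient and 6.85 ± 0.33 in Cdh1-intact cells (SD, n = 3 each). The difference of 0.64 (SE 0.18) was 0.51 without Cdh1-intact array 3. Sufu, an inhibitor of Hedgehog signalling, had 8.14, 8.20 and 7.97 on the Cdh1-deficient arrays and 7.96, 7.77 and 7.23 on the Cdh1-intact arrays. The groups were separated by little, and the difference of 0.45 (SE 0.21) was 0.24 without Cdh1-intact array 3 and 0.16 as an average of its 3 probe sets.

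Trim8, a ubiquitin ligase gene next to Sufu, had 7.72, 7.91 and 7.92 on the Cdh1-deficient arrays and 7.90, 8.24 and 7.01 on the Cdh1-intact arrays. Its Cdh1-deficient values lay between the extremes of the Cdh1-intact group, as did those of Pdcd4, an inhibitor of translation initiation, at 10.21, 10.67 and 10.45 on the Cdh1-deficient arrays and 10.36, 10.86 and 9.89 on the Cdh1-intact arrays. Ptprcap, a lymphocyte protein bound to CD45, had 10.85, 10.54 and 10.72 on the Cdh1-deficient arrays and 11.02, 11.43 and 10.65 on the Cdh1-intact arrays. Hif1an, a hydroxylase that restrains HIF1, differed by 0.26 (0.12 without Cdh1-intact array 3). Shoc2, a scaffold of RAS to RAF signalling, differed by 0.13 (0.06 without it). Entpd1, the ectonucleotidase CD39, lay near the floor at 4.51 to 5.58 and differed by −0.10.

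All 5 genes of the cytoskeleton, chaperones, trafficking and proteolysis had a higher mean in Cdh1-deficient cells, with a median difference of 0.16, or 0.08 without Cdh1-intact array 3. Ide, the insulin-degrading protease, had 10.81, 11.31 and 11.10 on the Cdh1-deficient arrays and 10.67, 11.04 and 10.36 on the Cdh1-intact arrays. The groups overlapped, and the difference of 0.38 (SE 0.22) was 0.11 as an average of its 5 probe sets. Ehd1, which returns endocytosed receptors to the surface, had 8.38, 8.19 and 8.15 on the Cdh1-deficient arrays and 8.21, 7.17 and 8.50 on the Cdh1-intact arrays. It was the 1 member whose highest value was on Cdh1-intact array 3. The actin-severing cofilin gene Cfl1 differed by 0.07, the co-chaperone gene Stip1 by 0.16 and the Golgi exchange factor gene Gbf1 by 0.16. Cfl1 turned to −0.10 and Gbf1 to −0.01 as averages over all their probe sets.

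Outside the chosen genes, none of the 571 other chromosome 19 genes passed the limma test either, and at an unadjusted p under 0.05 there were 33 higher (5.78%) and 2 lower (0.35%) in Cdh1-deficient cells. Over all genes the shares were 4.01% and 1.49%, so more were higher than lower there too. Among the 300 at or above the median level, the arrays of the groups did not overlap for 33 that were higher (11%) and 3 that were lower (1%) in Cdh1-deficient cells. Over all 9097 genes at such levels the shares were 9.88% and 4.03%. The 4 of smallest p in the upward direction were Add3, an adducin of the membrane skeleton, at 0.80 (SE 0.16), Taf5, a TFIID subunit, at 0.71 (SE 0.15), Tigd3 at 0.47 (SE 0.12) and Slc29a2, a nucleoside transporter, at 0.81 (SE 0.21). For each of these 4 the lowest value was on Cdh1-intact array 3, and the differences without that array were 0.75, 0.59, 0.45 and 0.67. In the downward direction they were Ms4a6b at −2.39 (SE 0.62), Dusp5, a phosphatase that inactivates ERK, at −1.32 (SE 0.36), Plaat3 at −2.56 (SE 1.20) and Bloc1s2 at −0.50 (SE 0.27). The Plaat3 level stood at 10.66 on Cdh1-intact array 2, against 5.03 to 5.35 on the Cdh1-deficient and 6.06 and 6.56 on the other Cdh1-intact arrays, and its difference without that array was −1.12. Bloc1s2 had overlapping groups. Its level stood at 11.38 on Cdh1-intact array 1, and its difference without that array was −0.19. For Plaat3 and Bloc1s2 the limma p without adjustment was 0.077 and 0.12, so neither lay under 0.05.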

How the data were processed

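A log2 level was deposited for each of 45101 probe sets on every array. The deposited log2 values come from RMA, per the submitters' processing notes, with no version named. The platform annotation gave 1 symbol to 34945 probe sets, which were used, and several to 932. It did not list 9211. RefSeq's GRCm38.p6 table served for chromosomes and gene order only, since the build of the array design is unknown here. Array medians lay between 5.07 and 5.13. No detection call was used, and the number of arrays limits the precision.

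The members, gene lists and comparisons were chosen with earlier results of these data known. Also named were, in each direction, the 4 other chromosome 19 genes with the smallest p, a level no lower than the median gene's and a full symbol. A deviation is the log2 level on an array minus the gene's mean over the arrays. All 18193 genes were compared between groups by limma 3.58.1 under R 4.3.3, two-sided, with Benjamini-Hochberg adjustment and a threshold of 0.05. The fit was tested on simulated data. SE is the moderated standard error. With 3 arrays against 3 a permutation test cannot go below 0.1, so none was used. Each array is 1 mouse, per the labels' protocols. Alternatives covered normalization, the probe set taken, the filter on level, the replicate block and each array left out.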

Additional observations from a re-analysis of the deposited data

How the results depend on the processing

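Of the recomputed summary values 208 stayed within the spread between replicates, or within 1.5 times for counts, and 17 did not. With limma 0 genes had an adjusted p under 0.05 in every alternative run, the replicate block and each array left out included. The 1000 genes with an unadjusted p under 0.05 are those of the main fit only. The replicate numbers are not stated to pair the arrays. Deviations of same-numbered arrays from their group means correlated at −0.14, 0.01 and 0.04 across genes, which cannot show whether mice were paired. With the replicate block the median over the 38 genes was 0.14 and that of the other chromosome 19 genes 0.16, as without it. Both groups carry the same replicate numbers, so the block cannot change a difference of group means. This agreement was fixed in advance and is no check. Leaving out each array in turn gave −0.0021 to 0.32 for the median over the 38 genes, −0.02 to 0.24 for the other chromosome 19 genes, and −0.04 to 0.21, −0.02 to 0.23 and 0.01 to 0.31 for the first, middle and last 100 of these in gene order. The median deviation of the 38 genes on Cdh1-intact array 3 lay between −0.43 and −0.37 over all alternatives. The count lowest on that array, a result chosen after seeing the data, was 22 of 33 with probe sets of suffix _a_at, _s_at or _x_at left out and at most 29. When single arrays were left out, members with separate groups numbered 4 to 11 higher and 1 to 6 lower. There were 9 higher without Cdh1-deficient array 1, 8 without array 1 of the Cdh1-intact group and 11 without its array 2. Counted as lower were 2 without Cdh1-deficient array 2 and 6 without Cdh1-intact array 3. Smaller groups separate more easily for any gene, and the shares over all genes in those runs are not given here. These counts are therefore no result about the members. The lower count was 0 when all probe sets were averaged, when probe sets with those suffixes were left out and when members below the median level were left out. Leaving out single arrays moved the median deviations of the 38 genes within −0.07 to 0.04, 0.0048 to 0.13 and 0.036 to 0.15 on the Cdh1-deficient arrays 1, 2 and 3, and those of the other chromosome 19 genes within −0.064 to 0.035, 0.033 to 0.16 and 0.043 to 0.16. The median difference of the 38 genes was 0.066 when all probe sets were averaged, and that of the other chromosome 19 genes 0.043 with no filter on level. The median deviation of the 38 genes on Cdh1-deficient array 3 was 0.047 when all probe sets were averaged. With no filter on level, which adds genes near the floor, the other chromosome 19 genes stood at 0.029 and 0.032 on the Cdh1-deficient arrays 2 and 3. The cause of the other moves was not tested. Of the 38 single differences 10 changed sign without Cdh1-intact array 3 and 7 when all probe sets were averaged.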
